A study of Mus musculus with 50 samples.

Results

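The 12 mammary gland (MG) tumors with the highest and the 12 with the lowest level of Mki67 were compared, out of 50 tumors whose RNA was sequenced. The tumors were chosen by the measured RPKM of Mki67 irrespective of treatment. Tumors are named by treatment and the number in the sample title, insulin_13 was left out before ranking, and of the 49 ranked tumors 25 lay between both groups. RPKM is a read number scaled to gene length in kilobases and to the size of the library. All 50 tumors came from female p53R270H/+WAPCre mice, which carry a mutant p53 allele (R270H) that is switched on by Cre recombinase under the Wap (whey acidic protein) promoter, and thus in mammary epithelium. From 8 weeks of age the mice were injected subcutaneously with vehicle, IGF1, insulin, or the modified insulins glargine or X10, and 10 tumors per treatment were sequenced. Samples whose title reads untreated were counted as vehicle. Tumors were taken at 1 cm3, 24 h after the last injection. The authors had chosen tumors as EMT-like (with signs of an epithelial to mesenchymal transition) and with a latency time near the median of their group, but epithelial genes were high in some of the tumors, up to 3810.1 RPKM for Krt7. No normal MG was in the set, and each tumor was 1 library of a piece of tissue with all its cell types.

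Mki67 encodes Ki-67, a protein that coats the mitotic chromosomes and is made in cycling cells but not in resting cells, for which reason its staining is used in breast cancer to count dividing cells. The genes of the cell cycle are switched on in waves. Genes for DNA replication are driven by E2F factors at the entry into S phase, and genes for mitosis are repressed in resting cells by the DREAM complex and driven later by B-MYB and FOXM1, through CHR elements and CCAAT boxes in their promoters. Mutant p53 can no longer switch on the CDK inhibitor p21 as wild-type p53 does.

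Mki67 lay at chromosome 7, 135689784 to 135716361 (GRCm38), with 10061 bases of annotated exons. Its level was 22.8 to 29.1 RPKM (median 26.8) in the Mki67-high tumors, 15.3 to 22.6 RPKM (median 18.1) in the middle tumors and 6.88 to 15 RPKM (median 12.1) in the Mki67-low tumors. These values chose the tumors, so the difference in Mki67 between the groups is a description and its p is not reported. The last tumor inside the Mki67-high group, vehicle_186, had 22.8 RPKM, and the first outside it, insulin_37, had 22.6 RPKM. At the lower limit, glargine_47 (15.04 RPKM) was inside the Mki67-low group and IGF1_158 (15.3 RPKM) outside it, so that neither limit fell in a gap of the ranking.

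**Figure D1:**
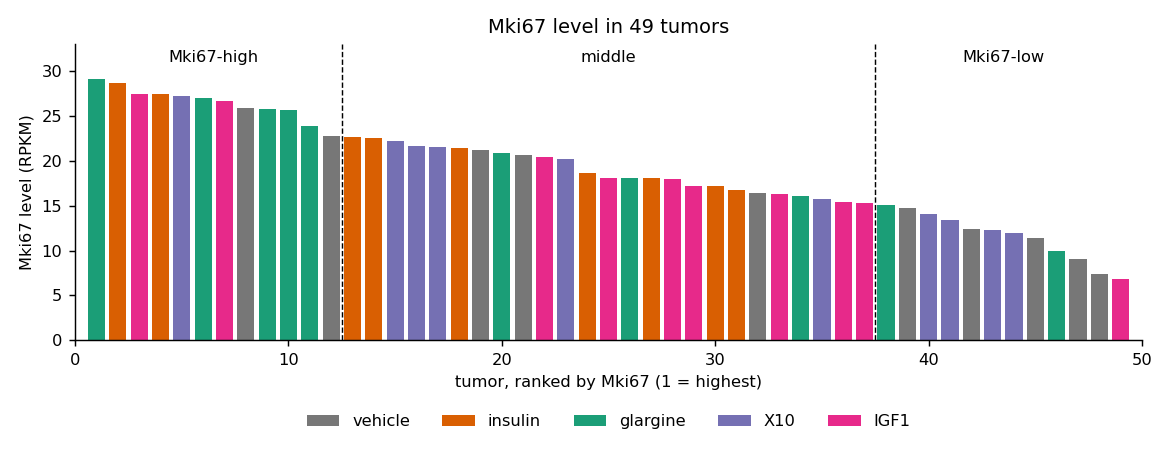
Bars show the Mki67 level (RPKM) of each of the 49 ranked tumors, colored by treatment; dashed lines mark the limits of the 12 Mki67-high and the 12 Mki67-low tumors. The level declines from 29.1 to 6.88 RPKM, without a step at either limit.

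All treatments but insulin were found in both groups. Of the 12 Mki67-high tumors, 5 were from the glargine group, 2 each from the vehicle, insulin and IGF1 groups, and 1 from the X10 group. Of the 12 Mki67-low tumors, 5 were vehicle, 4 X10, 2 glargine and 1 IGF1 tumors, and 0 of the 9 ranked insulin tumors were among them. The distribution of the treatments over the high, middle and low classes did not pass the test (chi-square 14.2, permutation test with 100000 resamples of the labels, p = 0.0732). With classes of 16, 17 and 16 tumors the p was 0.261.

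By treatment, Mki67 was between 7.41 and 25.9 RPKM (median 15.6) in the 10 vehicle tumors and between 16.7 and 28.7 RPKM (median 21.5) in the 9 insulin tumors. The median was 22.4 RPKM (9.97 to 29.1) in the glargine group, 17.96 RPKM (11.9 to 27.2) in the X10 group and 17.6 RPKM (6.88 to 27.4) in the IGF1 group. The 5 groups overlapped widely. The log2 difference from vehicle was 0.47 ± 0.21 (standard error) in the insulin group, 0.41 ± 0.21 with glargine, 0.20 ± 0.21 with X10 and 0.18 ± 0.21 in the IGF1 group. None of the 4 passed the test (limma, adjusted over all genes, adjusted p = 0.331, 0.784, 0.764 and 0.885). In the test of Mki67 alone, insulin against vehicle had an exact two-sided permutation p of 0.0388, which was 0.155 after adjustment over the 4 treatments. That value leaves out insulin_13. In limma, where insulin had an adjusted p of 0.331 over all genes, the log2 difference was 0.42 with insulin_13 kept (adjusted p = 0.441). With insulin_13 left out and the length score described next in the fit it was 0.23 (adjusted p = 0.631). The permutation p of the classes was 0.128 with insulin_13 kept.

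Library size, recovered from the steps between RPKM values, was between 26.5 and 51.9 M reads. Its median was 41.8 M reads in the Mki67-high and 43.9 M reads in the Mki67-low tumors, and its mean did not differ beyond the spread (two-sided permutation test, p = 0.239, adjusted over 4 measures 0.479). The share of processed pseudogenes in all RPKM (mean 5.07% and 5.04%) and that of mitochondrial genes (3.5% and 3.7%) also did not (p = 0.943 and 0.642). A measure of transcript length did. The length score is the mean log2 level of the 4112 protein-coding genes with over 6000 bases of exons minus that of the 975 with under 1500 bases, counting only genes outside the 29 gene lists described here. It was between 0.0091 and 0.607 (median 0.45) in the Mki67-high tumors and between -0.67 and 0.37 (median 0.03) in the Mki67-low tumors (difference in means 0.47, permutation p = 0.00076, adjusted 0.00304). The 5 tumors with a score under -0.2, namely IGF1_160, vehicle_174, vehicle_195, glargine_47 and glargine_53, were all in the Mki67-low group. Since Mki67 is itself a long transcript, every gene result was also computed with the length score in the fit and without these 5 tumors.

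Over the 16732 genes other than Mki67 with a mean of at least 0.5 RPKM, 2125 (12.7%) were called, 1535 (9.17%) higher and 590 (3.53%) lower in the Mki67-high tumors (limma on log2(RPKM + 0.5), adjusted p under 0.05). The p of a gene is for its association with Mki67 across the tumors, since Mki67 placed the tumors. The median difference of all these genes was 0.06 on the log2 scale, and folds on this scale understate those of low genes. With the length score in the fit, 3 genes (0.0179%) passed, 2 higher (0.012%) and 1 lower (0.00598%), and 2695 (16.1%) had an unadjusted p under 0.05. Without the 5 tumors 45 (0.269%) passed, 38 higher (0.227%) and 7 lower (0.0418%). Of these, the genes with an adjusted p of 0.0499 were under 0.05 only through the first rank that Mki67, which chose the tumors, held in the adjustment. The calls below thus moved with the length score, whose part in any single call was not tested beyond these fits. After quantile normalization 1121 genes were higher and 717 lower, a share of 61% higher in place of 72.2%. Between 1244 and 2851 genes were called when 1 tumor at a time was left out; the genes differing between Mki67-high and Mki67-low tumors numbered 1244 without vehicle_174, 1295 without IGF1_160 and 1344 without insulin_15.

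Genes of cell division were called higher in the Mki67-high tumors more often than all genes were. In 9 lists with 243 tested members, which cover mitosis, replication, nucleotide synthesis, the entry into S phase, recombination and chromatin of dividing cells, 47.3% of the members were higher and 0 were lower, beside 9.17% and 3.53% of all genes. Their median log2 difference was 0.47, and 231 of 243 had a positive difference. With the length score in the fit the median was 0.44 (0.07 over all genes), and 54.3% of the members had a higher level at an unadjusted p under 0.05 and 0 a lower one (10.7% and 5.38% of all genes); 1 member passed after adjustment. Without the 5 tumors of low length score the median was 0.46, and 11 of the 38 genes called higher were members of these lists. Smc4, Ckap2, Clspn and Mcm5 among the 11 had an adjusted p of 0.0499, under 0.05 only through the rank of Mki67 in the adjustment. In bulk tissue, fewer dividing cells and less RNA of these genes per cell cannot be told apart.

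**Figure D2:**
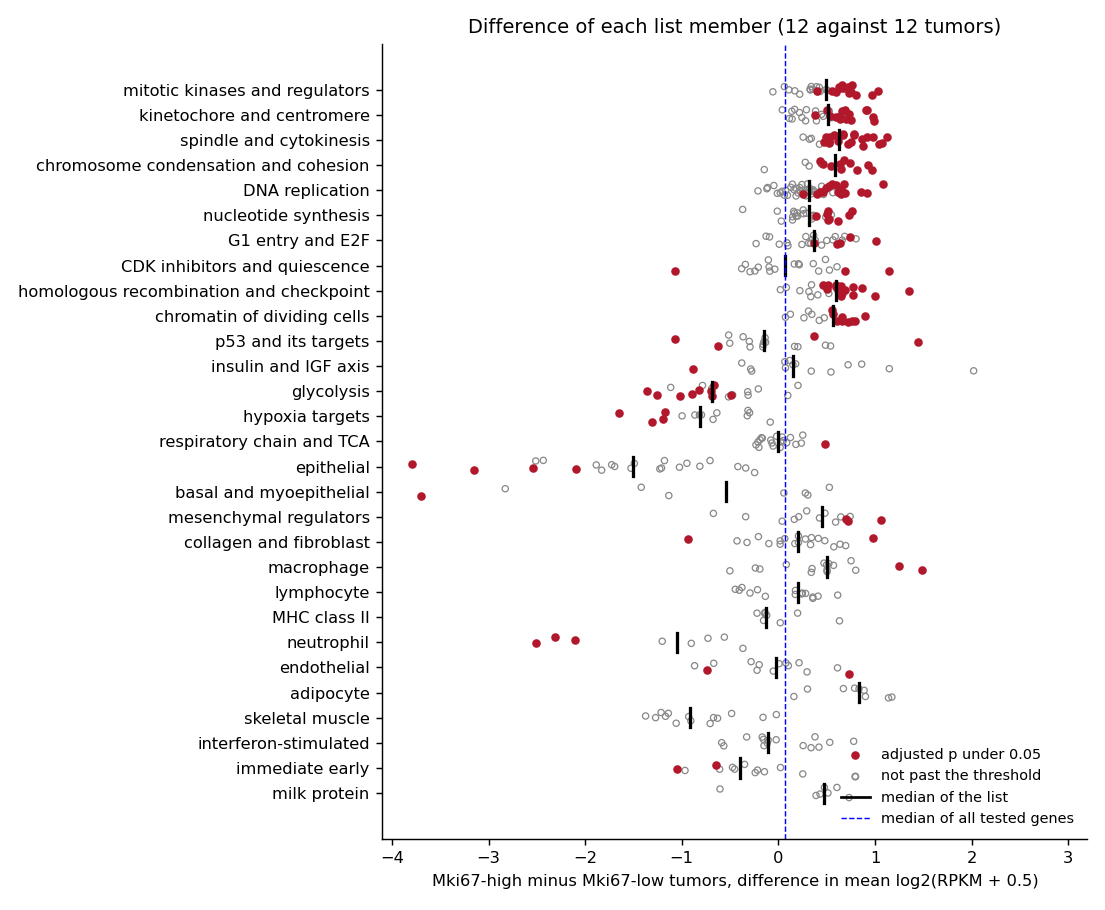
Each point is a gene of 1 of the 29 lists, at the difference in mean log2(RPKM + 0.5) between the 12 Mki67-high and the 12 Mki67-low tumors; filled points passed the test (adjusted p under 0.05), black bars are list medians, and the dashed line is the median of all tested genes. The medians of the 9 division lists lie between 0.32 and 0.62, with 12 of 243 points left of 0, and those of the glycolysis, hypoxia, epithelial and neutrophil lists lie left of 0.

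Among the mitotic kinases and regulators, 14 of 29 were higher (median 0.49). Plk1, the polo-like kinase that starts mitosis and drives spindle assembly, was at 10.6 to 20.2 RPKM (median 15.4) in the Mki67-high and at 4.72 to 13.8 RPKM (median 8.19) in the Mki67-low tumors. All 12 high tumors were above the median of the low tumors, and 9 were above every low tumor, with a log2 difference of 0.81 (standard error 0.15, adjusted p = 0.0061). Here and below, the first of a pair of ranges is that of the Mki67-high tumors, and differences are Mki67-high minus Mki67-low on the log2 scale, ± their standard error. Ccna2 (cyclin A2, the partner of CDK2 in S phase and of CDK1 at the start of mitosis) was at 46.3 to 131.9 RPKM (median 80.6) and 23.6 to 60.9 RPKM (median 43.5). Its difference was 0.97 (standard error 0.18, adjusted p = 0.0061), and 10 of the 12 high tumors exceeded every low tumor. Plk4, the kinase that starts centriole duplication, differed by 1.04 (standard error 0.20, adjusted p = 0.0064), and Espl1 (separase, which cleaves cohesin at anaphase) by 0.66 (standard error 0.15, adjusted p = 0.00985). Several members did not pass the test. Ube2c (2600 bases of exons) differed by 0.17 ± 0.20 and Cdc20 (1868 bases), the activator of the anaphase-promoting complex, by 0.39 ± 0.22 (adjusted p = 0.6 and 0.229). Cks2 (692 bases), a member of the list for G1 entry and E2F, differed by 0.09 ± 0.19 (adjusted p = 0.785). The difference of Cdc20 with the length score in the fit was 0.97 (unadjusted p = 0.000191), and that of Plk1 was 0.72. Cdk1 itself, the kinase at the center of mitotic entry, was at 82.2 to 189.6 RPKM (median 118.2) against 56.5 to 163.2 RPKM (median 94.6), and its difference of 0.34 ± 0.15 did not pass the test (adjusted p = 0.131); Cdk1, Cks2, Ube2c and Cdc20, and Top2a further on, were named after their values were seen.

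Of the kinetochore and centromere genes, 15 of 30 were higher (median 0.52), and all 30 had a positive difference. Zwilch, part of the RZZ complex that holds the spindle checkpoint at unattached kinetochores, had 23.7 to 50.3 RPKM (median 36.3) in the Mki67-high and 9.88 to 37.3 RPKM (median 17.7) in the Mki67-low tumors, a difference of 0.99 (standard error 0.18, adjusted p = 0.0061). Cenpe, the kinetochore motor that moves chromosomes to the spindle equator, differed by 0.91 (standard error 0.17, adjusted p = 0.0061). For Hjurp, the chaperone that loads the centromeric histone, it was 0.66 (standard error 0.13, adjusted p = 0.00807), and for Cenpi 0.75 (standard error 0.16, adjusted p = 0.00887). In each of these 4 genes all 12 high tumors lay above the median of the low tumors, while the ranges of both groups overlapped.

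The spindle and cytokinesis list had the largest share of members called, 21 of 28, with a median of 0.62 and a positive difference in all 28. Hmmr, a microtubule-binding spindle protein, was at 19.6 to 46.8 RPKM (median 29.3) and 5.48 to 29.3 RPKM (median 14.5), with a log2 difference of 1.07 (standard error 0.20, adjusted p = 0.0061). Prc1, which bundles the microtubules of the central spindle, was at 24.3 to 54.8 RPKM (median 39.1) and 12.8 to 42.6 RPKM (median 23.2), with a log2 difference of 0.88 (standard error 0.16, adjusted p = 0.0061). The kinesins Kif23, of the central spindle, and Kif11, which separates the spindle poles, differed by 0.92 (standard error 0.18, adjusted p = 0.00625) and 0.86 (standard error 0.17, adjusted p = 0.0064). Stil, a centriole assembly factor that was among the genes with the smallest p, differed by 1.12 (standard error 0.19, adjusted p = 0.0061), with 10 high tumors above every low tumor. The list median with the length score in the fit was 0.55 and 20 of 28 members had an unadjusted p under 0.05.

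Of the genes for chromosome condensation and cohesion 10 of 14 were higher. Smc4, a core subunit of condensin, was at 152.4 to 331 RPKM (median 227) in the Mki67-high and 90.3 to 205 RPKM (median 118.4) in the Mki67-low tumors, a difference of 0.74 (standard error 0.14, adjusted p = 0.00625). Its condensin partner Smc2 differed by 0.93 (standard error 0.21, adjusted p = 0.0105), the condensin II subunit Ncapd3 by 0.68 (standard error 0.15, adjusted p = 0.00972), and the cohesin acetyltransferase Esco2 by 0.97 (standard error 0.22, adjusted p = 0.0113). Top2a, which untangles sister chromosomes, was at 251 to 593 RPKM (median 386) and 135.7 to 599 RPKM (median 255); 1 Mki67-low tumor exceeded every high tumor, and the difference was 0.64 (standard error 0.21, adjusted p = 0.0472).

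**Figure D3:**
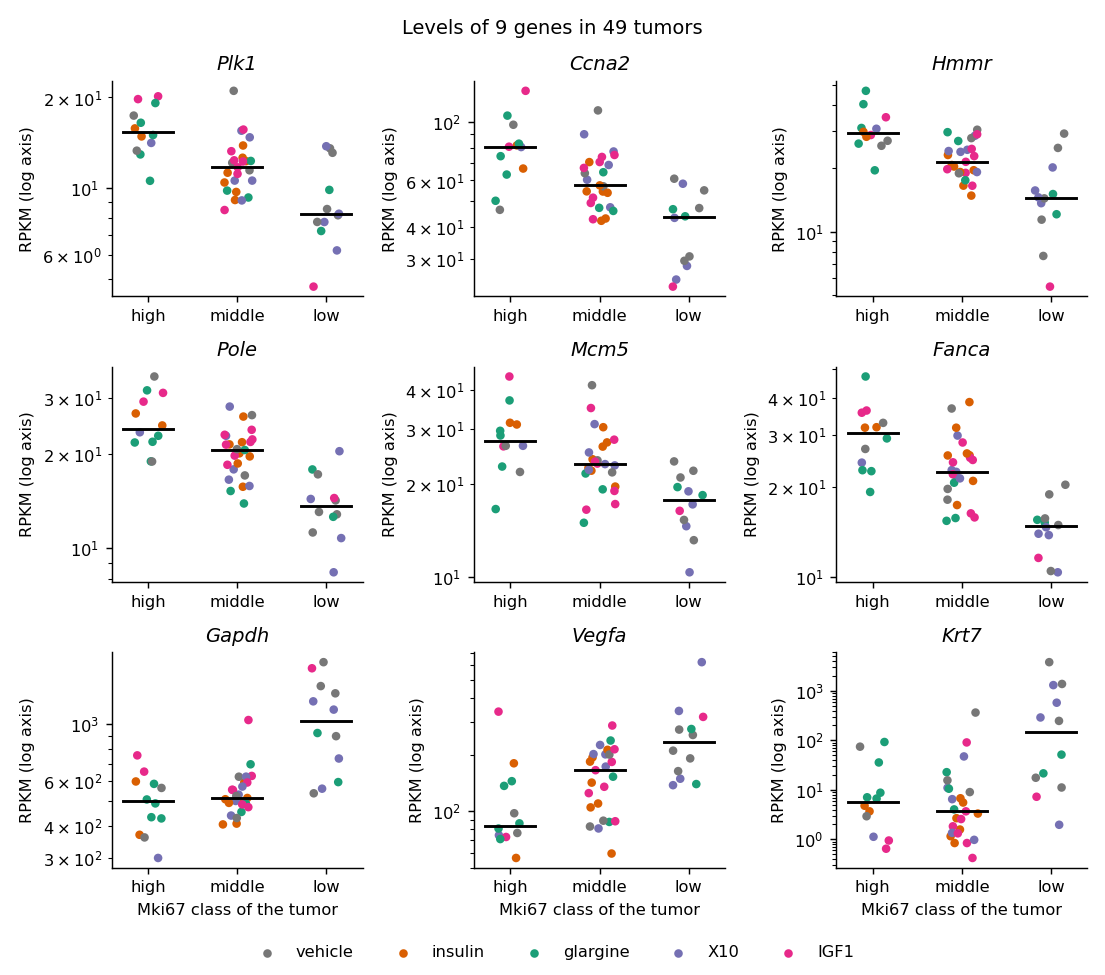
Levels (RPKM, log axes) of 9 genes in the 12 Mki67-high, 25 middle and 12 Mki67-low tumors, 1 point per tumor colored by treatment, with the median of each class as a bar. The 6 division genes are lowest in the Mki67-low tumors, where Gapdh, Vegfa and Krt7 are highest, and every gene shows overlap between classes.

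The promoters of these genes were searched for the elements named above, in windows from 250 bases before to 50 after each start site (RefSeq, GRCm38.p6). The letters searched, on both strands, were TTTGAA for the CHR core, CCAAT for the CCAAT box and TTCCCGC for the E2F site core. Of the 8 called members of the mitotic and replication lists with the smallest p, Pola1, Clspn, Plk1, Hmmr and Prc1 had entries; Pole, Zwilch and Ccna2 did not. The last 110 bases before the start site are shown for the 3 mitotic genes and for Pola1 as a replication gene, in the direction of transcription, because they hold CCAAT boxes and, for Prc1, the CHR core (in capitals).
Plk1 (chr7:122159325-122159434, plus strand): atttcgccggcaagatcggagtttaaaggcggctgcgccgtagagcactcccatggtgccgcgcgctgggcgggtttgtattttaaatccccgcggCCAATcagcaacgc
Hmmr (chr11:40733438-40733547, minus strand): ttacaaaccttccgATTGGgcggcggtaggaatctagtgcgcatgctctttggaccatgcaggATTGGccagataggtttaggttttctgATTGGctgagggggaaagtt
Prc1 (chr7:80294366-80294475, plus strand, the second of 2 start sites): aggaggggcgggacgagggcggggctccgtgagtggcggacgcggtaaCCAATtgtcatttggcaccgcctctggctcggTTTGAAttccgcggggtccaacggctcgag
Pola1 (chrX:93632156-93632265, minus strand): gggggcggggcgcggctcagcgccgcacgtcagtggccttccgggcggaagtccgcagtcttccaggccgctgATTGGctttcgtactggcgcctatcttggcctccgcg
ATTGG is CCAAT read on the other strand. In Plk1 and Hmmr the CHR core lay after the start site, 31 and 9 bases downstream, Hmmr had 2 further CCAAT boxes 129 and 172 bases before the start, and in Pola1 2 E2F cores lay further upstream, 121 and 169 bases before the start. Clspn, the other replication gene with an entry, is not printed. It had CCAAT boxes 21 and 69 bases before the start and no match to the CHR or E2F core.

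The CHR core was common in the mitotic genes that were higher. It was found in 38 of the 54 windows (70.4%) of the 49 called genes of the mitotic, kinetochore, spindle and condensation lists that had entries, and in 1606 of 13313 windows (12.1%) of all tested genes with entries. A CCAAT box was found in 35 of the 54 windows (64.8%) and in 37.2% of the windows of tested genes, and both elements in 28 (51.9%) and in 4.93%. The E2F core was found in 8 of the 26 windows (30.8%) of called replication and nucleotide genes, in 7 of the 54 mitotic windows (13%) and in 7.77% of the windows of tested genes. Over all members of these lists, called or not, the CHR core was in 58.2% of the mitotic windows and the E2F core in 29.7% of the replication windows, so that the shares belonged to the lists and not to the called members alone. The windows had a similar median content of G and C (59.7%, 59.8% and 60.3%). A match is a run of letters and was not tested as a binding site.

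Of the DNA replication genes 17 of 51 were higher and 0 lower (median 0.32). Pole, the catalytic subunit of the leading-strand polymerase, was at 18.9 to 35.2 RPKM (median 24) in the Mki67-high and at 8.39 to 20.4 RPKM (median 13.6) in the Mki67-low tumors. All 12 high tumors were above the median of the low tumors, 10 were above every low tumor, and the difference was 0.86 (standard error 0.13, adjusted p = 0.00352). Pola1, the polymerase that lays the primers, was at 13.9 to 31.5 RPKM (median 21.6) and 3.73 to 16.2 RPKM (median 10.9) and differed by 1.08 (standard error 0.18, adjusted p = 0.0061). Clspn, which carries the replication checkpoint signal from ATR to CHK1, differed by 0.92 (standard error 0.16, adjusted p = 0.0061), and Mcm5, a subunit of the replicative helicase, by 0.68 (standard error 0.14, adjusted p = 0.00881). Adding the length score to the fit gave a list median of 0.42, while the difference of Mcm5 was 0.86 and that of Pola1 0.63. Pole, Pola1, Clspn and Mcm5 were among the genes that passed without the 5 tumors of low length score (adjusted p = 0.0361, 0.0478, 0.0499 and 0.0499). Clspn and Mcm5 were under 0.05 only through the rank that Mki67 held in the adjustment.

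In nucleotide synthesis 8 of 26 genes were higher (median 0.32). Rrm1, the large subunit of ribonucleotide reductase, was at 21.4 to 42.9 RPKM (median 31.9) and 15.7 to 30 RPKM (median 22), with a log2 difference of 0.52 (standard error 0.12, adjusted p = 0.0118). Gmps, which makes GMP, differed by 0.51 ± 0.13. Dck, the kinase that salvages deoxynucleosides, differed by 0.77 ± 0.20, and Shmt1, which supplies folate-bound carbon for thymidylate, by 0.62 ± 0.17 (adjusted p = 0.0152, 0.02 and 0.0202 for the last 3 genes). Of the genes for G1 entry and the E2F family 5 of 25 were higher. Rbl1 (p107, a pocket protein that is itself an E2F target) was at 10.9 to 18.1 RPKM (median 14.6) and 2.3 to 12.6 RPKM (median 7.71), so that 11 of the 12 high tumors were above every low tumor, with a difference of 1.01 (standard error 0.21, adjusted p = 0.00807). The E2F partner Tfdp2 differed by 0.61 (standard error 0.17, adjusted p = 0.0253), the E2F repressor E2f8 by 0.75 (standard error 0.23, adjusted p = 0.0332), and Skp2, which directs the CDK inhibitor p27 to degradation, by 0.64 (standard error 0.21, adjusted p = 0.0404). With the length score in the fit the list medians were 0.27 for nucleotide synthesis and 0.30 for G1 entry. At an unadjusted p under 0.05, 8 and 6 members were then higher, beside 12 and 13 without the score. The differences became 0.27 for Gmps, 0.41 for Dck, 0.43 for Rbl1, 0.28 for Tfdp2 and 0.18 for Skp2. Those of Rrm1, Shmt1 and E2f8 were 0.47, 0.59 and 0.49.

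In the list for homologous recombination and checkpoint 16 of 24 genes were higher (median 0.60). Fanca, a subunit of the Fanconi anemia core complex for the repair of DNA crosslinks (chromosome 8, 123268300 to 123318576), had the smallest p of the genes other than Mki67. It was at 19.3 to 47 RPKM (median 30.4) in the Mki67-high, 15.4 to 38.6 RPKM (median 22.5) in the middle and 10.4 to 20.4 RPKM (median 14.8) in the Mki67-low tumors. The difference was 1.00 (standard error 0.13, adjusted p = 0.000617), and 11 of 12 high tumors were above every low tumor. Fanca was also 1 of the 3 genes that passed with the length score in the fit, with a difference of 1.04 (adjusted p = 0.0146), and it passed without the 5 tumors (adjusted p = 0.0204). Fancb, of the same complex, differed by 0.77 (standard error 0.14, adjusted p = 0.0061), the recombination motor Rad54l by 0.65 (standard error 0.14, adjusted p = 0.00914), and the checkpoint kinase Atr by 0.65 (standard error 0.14, adjusted p = 0.00914). With the length score their differences were 0.64, 0.72 and 0.38 and did not pass (adjusted p = 0.102, 0.089 and 0.229). The list median was then 0.38, and 13 of 24 members were higher at an unadjusted p under 0.05, beside 20 without the score. The other genes that passed with the length score were Gm21188, which was higher (1.43, adjusted p = 0.00584), and Insig2, a brake on sterol synthesis, which was lower (-0.72, adjusted p = 0.0146); without the length score Insig2 differed by -0.31 ± 0.14 (adjusted p = 0.126).

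Of 16 chromatin genes of dividing cells 9 were higher. Dnmt1, which copies DNA methylation after replication, was at 23.6 to 40 RPKM (median 31.7) and 12.6 to 27.9 RPKM (median 23.1) and differed by 0.61 (standard error 0.13, adjusted p = 0.00944). The histone chaperone Asf1b, the histone methyltransferase Whsc1 and the chromatin remodeler Hells differed by 0.77 ± 0.16, 0.72 ± 0.14 and 0.89 ± 0.19 (adjusted p = 0.00773, 0.00625 and 0.00944). Hmgb2, a DNA-bending chromatin protein named after its values were seen, had an adjusted p of 0.0581 over all 24 tumors and of 0.038 without the 5 tumors of low length score.

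**Figure D4:**
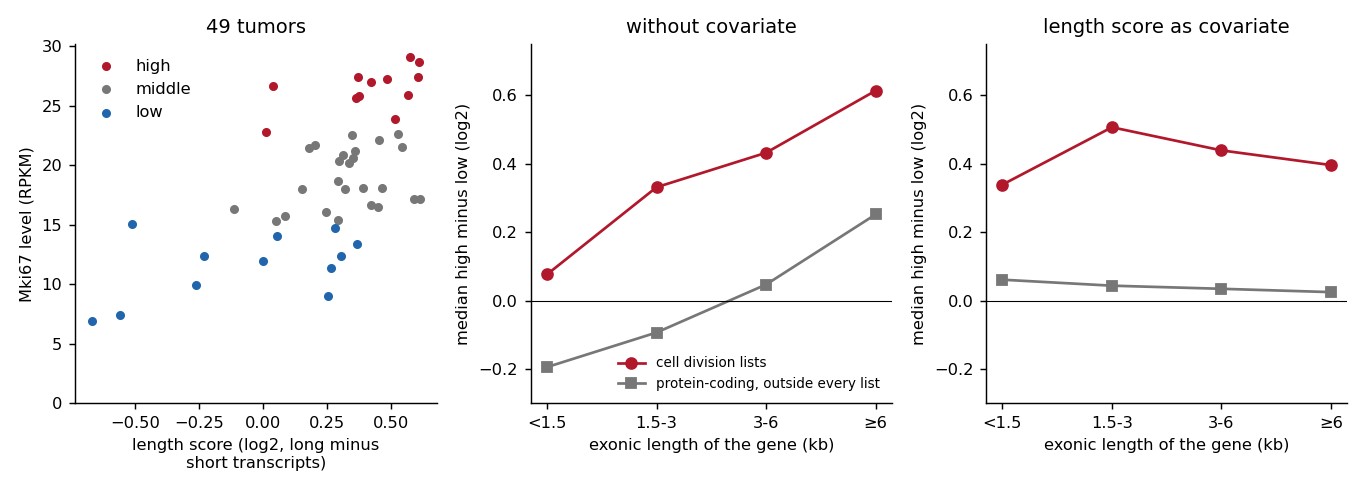
Left, the length score (log2) and the Mki67 level (RPKM) of each of the 49 tumors, colored by class. Middle and right, the median log2 difference between Mki67-high and Mki67-low tumors by exonic length, for the cell division lists and for protein-coding genes outside every list, without and with the length score in the fit; the score was computed from genes of the gray line, which it flattens by construction, and the medians of the division lists with the score are between 0.34 and 0.51.

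Outside the lists, the difference between the groups varied with transcript length. Of the 975 protein-coding genes outside every list with under 1500 bases of exons, 7 were higher and 94 lower, and of the 4115 with 6000 or more, 721 were higher and 38 lower. The protein-coding genes called higher had a median exonic length of 7033 bases, those called lower of 2753 and all tested ones of 4408. Within the division lists the median difference was 0.08 for the 6 members under 1500 bases, 0.33 for the 43 members from 1500 to 3000 bases, 0.43 for the members from 3000 to 6000 bases and 0.61 for the 78 longer members. In the same classes of protein-coding genes outside every list the medians were -0.19, -0.09, 0.05 and 0.25. With the length score in the fit the medians were 0.34, 0.51, 0.44 and 0.40 in the division lists and between 0.02 and 0.06 outside the lists, where the shortest and longest classes hold the genes that make up the score. At each length the median of the division genes was above that of the other genes in both fits.

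The other genes with the smallest p among those higher in the Mki67-high tumors were of mixed function. Neil3, a glycosylase that repairs oxidized bases in replicating DNA, and Pif1, a DNA helicase, differed by 1.01 ± 0.17 and 0.97 ± 0.17, and Kntc1 of the RZZ complex by 0.86 ± 0.15 (adjusted p = 0.0061, 0.0061 and 0.0061). Xpo4, a nuclear export receptor, was at 10.1 to 31.1 RPKM (median 20.7) and 3.67 to 15.5 RPKM (median 8.53) (difference 1.16 ± 0.21), and the deubiquitinase Usp24 differed by 0.73 ± 0.12; they have 10731 and 12350 bases of exons, and after adjustment for the length score their differences were 0.60 and 0.37. Atp10a, a lipid flippase, differed by 1.12 (standard error 0.18, adjusted p = 0.00554) and by 1.15 with the length score. Cd93, a receptor of endothelial and myeloid cells, differed by 0.79 (standard error 0.13, adjusted p = 0.0061). Of all genes, 2 (0.012%) had groups that did not overlap. Mpdz, a scaffold protein with PDZ domains, was above 72.5 RPKM in every Mki67-high and below 65.4 RPKM in every Mki67-low tumor, and glargine_69 stood apart with 1970.3 RPKM, where the next tumor had 109.6. Prr13 was at 39.8 to 80.4 RPKM (median 58) in the Mki67-high and 80.7 to 165.9 RPKM (median 87.1) in the Mki67-low tumors (-0.74 ± 0.14, adjusted p = 0.00625), and Mpdz differed by 1.83 ± 0.46 (adjusted p = 0.0152).

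CDK inhibitors and genes of quiescence did not move together. Of 20, 2 were higher and 1 lower (9.17% and 3.53% of all genes), with a median difference of 0.06. Cdkn1a, which encodes p21, was lower in the Mki67-high tumors. Its level was 19.4 to 80.8 RPKM (median 28.1) there and 30.6 to 125.8 RPKM (median 78.6) in the Mki67-low tumors, 11 of 12 high tumors were under the median of the low tumors, and the difference was -1.07 (standard error 0.24, adjusted p = 0.0105). Adjusted for the length score it was -0.64 (unadjusted p = 0.0341). The sestrins Sesn1 and Sesn3, which restrain mTOR, were higher (0.70 ± 0.21 and 1.14 ± 0.35, adjusted p = 0.0308 and 0.0335), but with the length score their differences were 0.29 and 0.13. Of 18 genes of p53 and its targets, 2 were higher and 2 lower (9.17% and 3.53% of all genes). Besides Cdkn1a, Phlda3, an inhibitor of AKT, was lower (-0.63 ± 0.18, adjusted p = 0.0245), whereas Eda2r (1.44 ± 0.34, adjusted p = 0.0118) and Zmat3 (0.36 ± 0.11, adjusted p = 0.0313) were higher. Phlda3 and Zmat3 did not pass with treatment in the fit (adjusted p = 0.0889 and 0.115). Trp53 was at 11.1 to 69.8 RPKM (median 49.1) and 10.5 to 103.4 RPKM (median 39) and differed by 0.20 ± 0.28 (adjusted p = 0.669); its reads come from the mutant and the wild-type allele together.

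Glycolysis genes that passed the test were lower in the Mki67-high tumors. Of 19, 0 were higher and 9 lower (median -0.68; 3.53% of all genes were lower). Gapdh was at 299 to 754 RPKM (median 498) in the Mki67-high and 535 to 1747 RPKM (median 1030.3) in the Mki67-low tumors, where 8 of 12 were above every high tumor, with a difference of -1.01 (standard error 0.20, adjusted p = 0.0064). Tpi1 was at 372 to 844 RPKM (median 469.6) and 441 to 1584 RPKM (median 1087), with a log2 difference of -0.90 (standard error 0.20, adjusted p = 0.00998). Pfkp, a phosphofructokinase, and Aldoa, the aldolase of the same pathway, differed by -0.70 (standard error 0.17, adjusted p = 0.0134) and -0.68 (standard error 0.17, adjusted p = 0.0136). The glycolysis median with the length score in the fit was -0.40, and 7 of 19 were lower and 0 higher at an unadjusted p under 0.05. After adjustment 0 of the 19 passed with the score, and 0 without the 5 tumors of low length score (list median -0.54). With treatment in the fit 9 were lower. Of 20 genes of the respiratory chain and the TCA cycle 1 was higher and 0 lower (9.17% and 3.53% of all genes), Idh3a (0.48 ± 0.15, adjusted p = 0.0399), with a list median of 0.00.

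Hypoxia targets had the same direction. All 14 had a negative difference and 4 were lower (3.53% of all genes were), with a median of -0.81 (-0.76 with the length score). After adjustment 0 of the 14 passed with the length score, and 0 without the 5 tumors of low length score (median -0.65). With treatment in the fit 3 were lower. Vegfa, the main growth factor for blood vessels, was at 56.2 to 339 RPKM (median 83.4) and 137.5 to 623 RPKM (median 232) and differed by -1.17 (standard error 0.27, adjusted p = 0.0109). Adjusted for the length score its difference was -1.48 (unadjusted p = 0.000198, adjusted p = 0.0702). Adm (adrenomedullin), Bnip3 (a mitophagy receptor) and Ankrd37 differed by -1.65 ± 0.47, -1.19 ± 0.35 and -1.31 ± 0.36 (adjusted p = 0.0264, 0.0308 and 0.022). Pgf, a growth factor of the VEGF family outside this list, was at 0.847 to 16.7 RPKM (median 3.08) and 6.55 to 95.9 RPKM (median 18.8), and 8 Mki67-low tumors exceeded every high tumor (-2.27 ± 0.44, adjusted p = 0.0064). Bhlhe40, a transcription repressor that hypoxia also induces, differed by -0.92 (standard error 0.19, adjusted p = 0.00814).

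Of the 12 immediate early genes 2 were lower (3.53% of all genes were), Atf3 (-1.05 ± 0.31, adjusted p = 0.0303) and Junb (-0.65 ± 0.20, adjusted p = 0.0381). The remaining genes with the smallest p among those lower in the Mki67-high tumors began with Adssl1, an enzyme of adenine nucleotide synthesis, at 3.23 to 15.6 RPKM (median 7.85) and 12.9 to 29.4 RPKM (median 21.1) (-1.35 ± 0.23, adjusted p = 0.0061). The metallothionein Mt1 was at 63.3 to 262 RPKM (median 76.9) and 110.2 to 772 RPKM (median 315) (-1.54 ± 0.28, adjusted p = 0.0061). The others were the vesicle proteins Vamp5 (-0.97 ± 0.18) and Vamp8 (-0.80 ± 0.16), Lgals3 (galectin 3, -1.32 ± 0.25), the endosomal GTPase Rab20 (-0.94 ± 0.18), Mien1 (-0.62 ± 0.12) and the mitochondrial deoxyguanosine kinase Dguok (-0.53 ± 0.11). Of these genes Rab20 and Adssl1 passed without the 5 tumors of low length score (adjusted p = 0.0289 and 0.0478). The secreted protease Klk8 and the protease inhibitor Serpinb2, chosen after their values were seen, also passed there, with differences of -2.54 ± 0.53 and -2.55 ± 0.54 over all 24 tumors (adjusted p = 0.00914 and 0.00914).

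**Figure D5:**
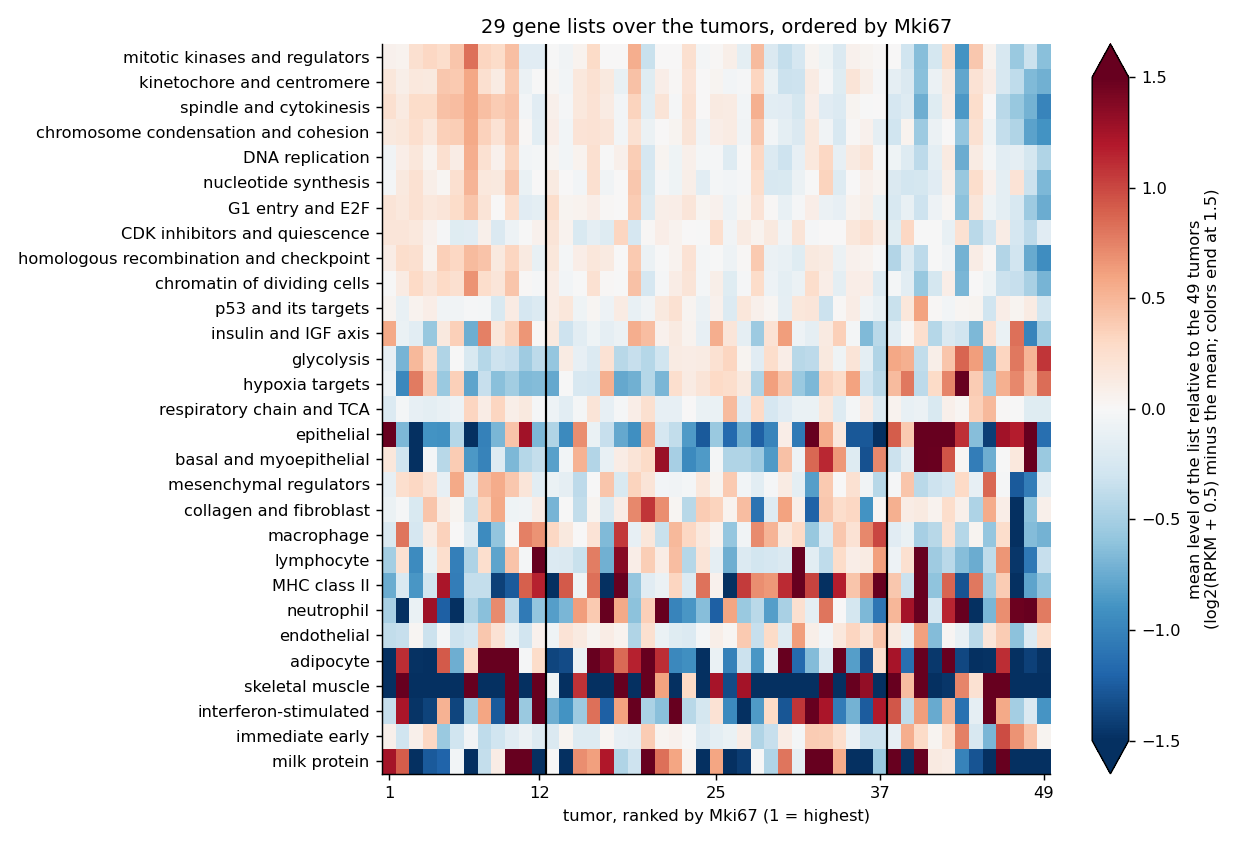
Each column is 1 of the 49 tumors, ordered by Mki67 from left (highest) to right, and each row is a gene list; color gives the mean log2(RPKM + 0.5) of its tested members relative to the mean of the 49 tumors, ending at 1.5. The rows of the division lists turn from red to blue from left to right with exceptions such as rank 44, while the epithelial, neutrophil, muscle and fat rows vary strongly from tumor to tumor.

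The division lists did not order the tumors exactly as Mki67 did. The mean level of the 243 division genes relative to the 49 tumors was between -0.08 and 0.57 (median 0.19, log2) in the Mki67-high and between -0.73 and 0.20 (median -0.22) in the Mki67-low tumors. Of the 12 tumors with the highest level, 7 were Mki67-high, 4 middle and 1 Mki67-low; of the 12 with the lowest, 8 were Mki67-low, 4 middle and 0 Mki67-high. X10_95, ranked 44 by Mki67, ranked 10 by the division genes, and vehicle_195, ranked 42, ranked 16. IGF1_135 was highest and X10_100 lowest by the division genes.

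All 22 tested epithelial genes had a negative difference (median -1.51), and 4 were lower (3.53% of all genes were): Krt7 (-3.80 ± 1.09, adjusted p = 0.0264), the tight junction gene Cldn4 (-3.15 ± 0.81, adjusted p = 0.0169), Krt19 (-2.54 ± 0.81, adjusted p = 0.041) and Spint2 (-2.10 ± 0.69, adjusted p = 0.0472). With treatment in the fit 0 of the 22 passed (adjusted p = 0.1, 0.0694, 0.0759 and 0.0876 for these 4 genes), and 0 passed with the length score or without the 5 tumors of low length score. The differences of the 4 genes, in the same order, were -3.11, -2.62, -2.59 and -1.99 with treatment. They were -3.86, -3.40, -2.28 and -2.01 with the length score, and -3.50, -2.93, -1.79 and -1.64 without the 5 tumors. Krt7 was at 0.646 to 92.8 RPKM (median 5.72) in the Mki67-high and 1.97 to 3810.1 RPKM (median 149.6) in the Mki67-low tumors, 6 of which exceeded every high tumor. Cdh1 (E-cadherin) and Epcam, the defining members, differed by -0.71 ± 0.60 and -1.89 ± 0.84 and did not pass (adjusted p = 0.454 and 0.131). The summed level of all 24 epithelial genes ranged from 76.2 to 932 RPKM (median 299.9) in the Mki67-high tumors and from 42.1 to 9698 RPKM (median 814) in the Mki67-low tumors; only Ovol2 was at 0 in some tumor of the 2 groups. The genes differing between Mki67-high and Mki67-low tumors numbered 364 with this level in the fit. Of 8 tested basal genes 4 had a positive and 4 a negative difference, and 1, Krt14, was lower (-3.70 ± 0.93, adjusted p = 0.0152; 3.53% of all genes were lower). Krt14 did not pass with treatment in the fit (adjusted p = 0.0511), with the length score (0.192) or without the 5 tumors (0.0925). Its differences in these fits were -3.54, -3.39 and -3.67. Krt5 and Krt17 differed by -1.42 ± 0.82 and -2.83 ± 1.04 (adjusted p = 0.248 and 0.0684). The sum of the 9 basal genes ranged from 32.5 to 679 RPKM (median 78.6) in the Mki67-high tumors and from 64.3 to 4625 RPKM (median 122.6) in the Mki67-low tumors, with Krt5 at 0 in some tumor.

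Of 14 mesenchymal regulators 3 were higher and 0 lower (9.17% and 3.53% of all genes). Zeb1, a repressor of E-cadherin, was at 51.2 to 110.7 RPKM (median 67.9) and 6.94 to 67.8 RPKM (median 34.4) and differed by 1.07 (standard error 0.25, adjusted p = 0.0122). Zeb2 (0.72 ± 0.21, adjusted p = 0.0302) and Klf8 (0.70 ± 0.17, adjusted p = 0.0146) were the others. Zeb1 and Zeb2 have 10266 and 19942 bases of exons, and after adjustment for the length score the differences were 0.51 and 0.03 and the list median was 0.10. Of 20 collagen and fibroblast genes 1 was higher and 1 lower (9.17% and 3.53% of all genes). Fbn1 (fibrillin) was higher (0.98 ± 0.32, adjusted p = 0.0427) and Fbln1 (fibulin) lower (-0.93 ± 0.25, adjusted p = 0.0219). Col1a1, Col1a2 and Col3a1 differed by -0.32 ± 0.31, 0.02 ± 0.26 and 0.34 ± 0.30, within the spread between tumors (adjusted p = 0.513, 0.971 and 0.471). The summed level of this list ranged from 7753 to 29533 RPKM (median 18477) in the Mki67-high tumors and from 7295 to 32314 RPKM (median 16095) in the Mki67-low tumors.

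Of 16 macrophage genes 2 were higher (9.17% of all genes were), the mannose receptor Mrc1 and Emr1, which encodes F4/80. Mrc1 was at 30.2 to 145.6 RPKM (median 88.6) and 4.6 to 77.3 RPKM (median 29.1) and differed by 1.49 (standard error 0.36, adjusted p = 0.0126), and Emr1 differed by 1.25 (standard error 0.31, adjusted p = 0.0146). Ptprc, Csf1r and Cd68 differed by 0.57 ± 0.27, 0.47 ± 0.25 and -0.19 ± 0.27 and did not pass (adjusted p = 0.149, 0.203 and 0.669). The sum of the list ranged from 1285 to 5193 RPKM (median 2673) in the Mki67-high tumors and from 1063 to 3986 RPKM (median 2569) in the Mki67-low tumors, with no member at 0. Fcrls and Stab1, 2 further genes of resident macrophages named after their values were seen, were higher by 2.39 (standard error 0.54, adjusted p = 0.011) and 0.98 (standard error 0.23, adjusted p = 0.0114) and passed without the 5 tumors of low length score but not with treatment in the fit (adjusted p = 0.0633 and 0.0942). All 8 tested neutrophil genes had a negative difference, and 3 were lower (3.53% of all genes were): Retnlg (-2.10 ± 0.54, adjusted p = 0.0175), S100a8 (-2.51 ± 0.74, adjusted p = 0.0296) and S100a9 (-2.31 ± 0.73, adjusted p = 0.0399). With treatment in the fit only Retnlg of these passed (adjusted p = 0.0404, beside 0.0533 and 0.0603 for S100a8 and S100a9), and 0 passed with the length score or without the 5 tumors. The sum of the 9 neutrophil genes ranged from 88.6 to 3731 RPKM (median 602) in the Mki67-high tumors and from 37.6 to 6074 RPKM (median 1775) in the Mki67-low tumors, while Ly6g, Retnlg, Camp and Ngp were at 0 in some tumor; Csf3r differed by -0.90 ± 0.40 (adjusted p = 0.132).

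Of 14 endothelial genes 1 was higher and 1 lower (9.17% and 3.53% of all genes). Tek was higher (0.73 ± 0.24, adjusted p = 0.0459) and Flt1, a receptor of VEGF, lower (-0.74 ± 0.22, adjusted p = 0.0299), while Pecam1, Cdh5 and Kdr differed by 0.08 ± 0.15, 0.21 ± 0.12 and 0.61 ± 0.23 (adjusted p = 0.774, 0.249 and 0.0731). Flt1 did not pass with treatment in the fit (adjusted p = 0.0809). The sum of this list ranged from 269.8 to 449.7 RPKM (median 326) in the Mki67-high tumors and from 211 to 559 RPKM (median 388) in the Mki67-low tumors. No gene of the lymphocyte, MHC class II, adipocyte, skeletal muscle, interferon or milk protein lists passed in limma, and 0 had an unadjusted p under 0.05. The lymphocyte genes Cd3d, Cd3e and Cd3g differed by -0.13 ± 0.40, 0.24 ± 0.46 and 0.18 ± 0.55, and H2-Aa, H2-Ab1 and H2-Eb1 of MHC class II by -0.14 ± 0.51, -0.12 ± 0.50 and -0.15 ± 0.44 (adjusted p between 0.765 and 0.898 for these 6 genes). The fat genes Adipoq, Plin1 and Plin4 differed by 1.18 ± 0.83, 0.67 ± 0.52 and 0.89 ± 0.59, the muscle genes Acta1, Ckm and Myh1 by -1.17 ± 1.39, -1.21 ± 1.46 and -0.71 ± 1.00, and the caseins Csn1s1, Csn1s2a and Csn2 by 0.51 ± 1.15, 0.61 ± 0.93 and 0.73 ± 1.03 (adjusted p between 0.324 and 0.803 for these 9 genes). Tissue of such kinds varied between tumors of both groups. All 14 muscle genes had a negative difference (median -0.92, 0.03 with the length score), and their sum ranged from 7.24 to 4609 RPKM (median 11.6) in the Mki67-high and from 17.9 to 3629 RPKM (median 135.9985) in the Mki67-low tumors. The fat sum ranged from 44 to 359.5 RPKM (median 110.2) in the Mki67-high tumors and from 26.8 to 593 RPKM (median 52.2) in the Mki67-low tumors. For milk proteins the sum ranged from 0.908 to 982 RPKM (median 18.9) in the Mki67-high tumors and from 1.15 to 496 RPKM (median 12.7) in the Mki67-low tumors. For lymphocytes it ranged from 13.7 to 168.6 RPKM (median 55.3) in the Mki67-high tumors and from 6.79 to 471 RPKM (median 40.1) in the Mki67-low tumors. The MHC class II genes summed from 655 to 5504 RPKM (median 1438) in the Mki67-high tumors and from 131.8 to 5553 RPKM (median 1599) in the Mki67-low tumors. The interferon-stimulated genes summed from 91.9 to 2255 RPKM (median 195.03) in the Mki67-high tumors and from 130.2 to 800.4 RPKM (median 358) in the Mki67-low tumors. Ms4a1, Plin1, Retn, Tnnc2, Pvalb, Csn2, Wap and Glycam1 were at 0 in some tumor. The part of these cell types in the gene results was not tested beyond the fit with the epithelial level.

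No receptor or ligand of the insulin and IGF axis passed the test. Of 15 genes of the insulin and IGF axis 0 were higher and 1 was lower (9.17% and 3.53% of all genes). The lower gene was Igfbp3, a binding protein that sequesters IGF1, at 44.1 to 258 RPKM (median 127.3) in the Mki67-high and 127.3 to 305 RPKM (median 202) in the Mki67-low tumors (-0.88 ± 0.24, adjusted p = 0.0196). It did not pass with treatment in the fit (adjusted p = 0.0632), with the length score (0.225) or without the 5 tumors (0.171). The differences of Igfbp3 in these fits were -0.83, -0.78 and -0.81. Igf1r was at 4.04 to 12.1 RPKM (median 6.61) and 3.31 to 14.4 RPKM (median 5.62) (difference 0.07 ± 0.21, adjusted p = 0.861), and Insr at 5.5 to 11.6 RPKM (median 8.03) and 4.03 to 12.5 RPKM (median 7.42) (0.18 ± 0.16, adjusted p = 0.486). Igf1 differed by 0.54 ± 0.37 (adjusted p = 0.331). Igf2 ranged from 0.459 to 3475 RPKM in the Mki67-high and from 0.668 to 541 RPKM in the Mki67-low tumors, 3 high tumors exceeded every low tumor, and its difference of 2.02 ± 1.32 did not pass (adjusted p = 0.312). The difference of Igf2 was 3.77 with treatment in the fit (adjusted p = 0.0958) and 1.04 with the length score (adjusted p = 0.797).

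The 25 tumors between both groups, which took no part in the comparison, gave values that had not been used to call a gene. A regression on log2(Mki67 + 0.5) over these tumors called 0 of 16732 genes (limma, adjusted p under 0.05; 1312 or 7.84% at an unadjusted p under 0.05). In these tumors 101 of the division genes called between the groups (87.8%) had a slope of the same sign as their difference, beside 1040 of the 1408 genes called higher outside every list (73.9%), 415 of the 590 called lower (70.3%) and 10238 of all 16732 genes (61.2%). With the length score in the fit these shares were 88.7%, 68%, 70.5% and 58.7%. The median slope of all 243 division genes was 0.19 log2 units per log2 unit of Mki67 (0.29 with the length score), and -0.02 over all genes. The glycolysis and hypoxia lists had median slopes of -0.28 and -0.71, the same sign as between the groups. The neutrophil list (1.13, 1.24 with the length score) and the macrophage list (-0.54, -0.37 with the length score, 4 of 16 slopes positive) had the opposite sign, as did the muscle (0.61) and lymphocyte lists (-0.58). MHC class II had a median slope of -2.35 (-2.22 with the length score, 0 of 8 slopes positive), where the median difference between the groups was -0.13 (0.45 with the length score). The epithelial list had a median slope of 0.10, which turned to -0.32 with the length score. The length score had a Pearson r of 0.30 with log2 Mki67 over the 25 middle tumors (Spearman rho 0.34; permutation p = 0.147 and 0.101; adjusted over 4 measures 0.588 for r), and r was 0.09 without the 2 tumors farthest from its median.

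The genes whose level was most like that of Mki67 over these 25 tumors were led by Cenpf, a kinetochore protein of late G2 and mitosis, with a Pearson r of 0.73 on log2(RPKM + 0.5). Cenpf was at 25.4 to 45.4 RPKM (median 37.7) in the Mki67-high, 16.9 to 38.1 RPKM (median 27.8) in the middle and 7.12 to 36.5 RPKM (median 19.8) in the Mki67-low tumors and differed by 0.91 (standard error 0.19, adjusted p = 0.00914). A930004D18Rik (0.72), Foxl1 (0.67), E2f8 (0.67), Gm4419 (0.66), Shroom4 (0.65), Bdnf (0.65), Casc5 (0.65), Gen1 (0.64) and Cobll1 (0.64) followed. These genes were chosen for their r, which is a description. Of the 10, Cenpf, E2f8, Shroom4, Casc5 (the kinetochore scaffold KNL1) and Gen1 (a resolvase of DNA junctions) were also higher in the Mki67-high tumors, with differences of 0.91 ± 0.19, 0.75 ± 0.23, 0.69 ± 0.19, 0.98 ± 0.22 and 0.60 ± 0.20 (adjusted p = 0.00914, 0.0332, 0.0205, 0.00988 and 0.0472). The other 5 differed by -0.04 to 0.20 between the groups, with adjusted p from 0.741 to 0.941.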

How the data were processed

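Poly-A RNA of 50 MG tumors was sequenced on the Ion Proton. Alignment to GRCm38 was made by the authors in TopHat2 2.0.10 with Bowtie2, gene counts came from HTSeq 0.6.1, and RPKM values were deposited for 37701 genes, without a log transformation. RPKM values are not counts, so that the authors' DESeq2 1.2.10 analysis was not repeated. Library sizes were recovered from the steps of low values, as multiples of 1 read, over 5461 genes; at least 93.3% of low values per tumor were whole reads. Their number limits the precision of low genes, and intervals cover the spread between tumors. The labels give each tumor its own number but do not name its mouse.

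Here 16733 genes with a mean of at least 0.5 RPKM over 50 tumors were fitted on the scale log2(RPKM + 0.5) by limma (version 3.58.1, R 4.3.3) with an intensity trend, and p was adjusted by Benjamini-Hochberg over all of them, Mki67 included. The p of Mki67 is not reported, but it held the first rank in the adjustment. The adjusted p of other genes are therefore somewhat low, most where few genes passed. The procedure was tested on simulated data. Exonic lengths and coordinates were from GENCODE M21 (GRCm38; 16551 genes found). Permutation tests were two-sided with 100000 resamples, or exact for fewer than 10 tumors, in scipy 1.17.1.

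Named were Mki67, the 12 protein-coding genes per direction with the smallest p (Gm, Rik and ribosomal pseudogene names aside), up to 4 called members per list, the first 3 members of each cell type list, Igf1r, Insr, Igf1, Igf2 and Trp53, and the 10 genes most like Mki67 in the middle tumors; others are marked as chosen after their values were seen. The members and lists were chosen with earlier results of these data known. Alternatives were other pseudocounts, filters and scalings, no trend, library size or treatment as covariates, other group sizes, a regression over 49 tumors, limma voom on approximate reads (RPKM times exonic length and library size), insulin_13 kept, and each tumor left out. The length score and the epithelial level as covariates, protein-coding genes alone and leaving out 5 tumors were chosen after seeing the data.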

Additional observations from a re-analysis of the deposited data

Results flagged for a closer look

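Library size of IGF1_143, a middle tumor by Mki67, was 51.9 M reads, and the nearest of the other 9 IGF1 tumors had 44.4 M reads; the gap was 0.512 of the range of the group. Mki67, library size, the processed pseudogene share and the length score were looked at in each of the 5 treatment groups, 20 groups of values in all, and chance alone sets such a sample apart in about 1 in 20. No Mki67 value stood apart within its treatment group.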

How the results depend on the processing

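The 2125 genes differing between Mki67-high and Mki67-low tumors became 1175 with 8 tumors per group, 1115 without a filter on low values (over 35562 genes), 5750 in a regression over 49 tumors, 364 with the epithelial level in the fit, 3 with the length score in the fit and 45 without the 5 tumors of low length score. Their number was between 1244 and 2851 when 1 tumor was left out. Under the other alternatives the number stayed between 1532 and 2136, but the share of called genes that were higher, 72.2%, was 61% with quantile normalization. Of the tested list members 155 were called, against 1 with the length score and 11 without the 5 tumors, 1 of which, Hmgb2, was not among the 155. In the middle tumors 0 genes became 1 (Tgfbr3) with treatment in the fit. The mean difference in the processed pseudogene share was -0.11 percentage points with 8 tumors per group against 0.03. No paired analysis was possible because no 2 groups share a replicate number, and the labels do not name the mouse of a tumor.

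No named gene that was called changed sign, but calls were lost after adjustment: 100 of those named with the length score, 81 without the 5 tumors, 45 with the epithelial level, 32 with 8 tumors per group, 24 without a filter, 21 with treatment (Shmt1, E2f8, Skp2, Sesn1, Phlda3, Zmat3, Igfbp3, Bnip3, Cldn4, Krt7, Krt19, Spint2, Krt14, S100a8, S100a9, Flt1, Gen1, Top2a, Stab1, Fcrls and Gm21188), 17 with 16 tumors per group, 15 with insulin_13 kept and at most 7 under each other setting in which the named genes were followed. Calls of single genes were not followed with 1 tumor left out. The log2 differences of the following genes, none of them called in either fit, changed sign. With the length score they became Col1a1 0.091, Cd3d 0.30, H2-Aa 0.38, H2-Ab1 0.47, H2-Eb1 0.34, Myh1 0.22, Igf1r -0.31, Insr -0.34, A930004D18Rik -0.19, Foxl1 0.36, Gm4419 -0.11, Bdnf -0.10 and Cobll1 -0.59. Without the 5 tumors they became Cd3d 0.076, H2-Aa 0.14, H2-Ab1 0.22, H2-Eb1 0.14, Igf1r -0.15, Insr -0.10, A930004D18Rik -0.088, Foxl1 0.27, Gm4419 -0.14, Bdnf -0.039 and Cobll1 -0.39. With treatment in the fit they became H2-Aa 0.14, H2-Ab1 0.14, H2-Eb1 0.14, Csn1s1 -0.49, Csn1s2a -0.67, Csn2 -0.46, Trp53 -0.083 and Cks2 -0.035; with the epithelial level, Cdh1 0.39, Col1a2 -0.086, Cd3g -0.014, Foxl1 0.33, Gm4419 -0.00077, Bdnf -0.0047 and Cks2 -0.044; with insulin_13 kept, Cd3d 0.022, H2-Aa 0.16, H2-Ab1 0.19, H2-Eb1 0.057, Igf1r -0.029 and Cobll1 -0.032; with 16 tumors per group, Col1a2 -0.096, Cd3g -0.012 and Foxl1 0.28; with 8, H2-Aa 0.041 and H2-Ab1 0.083; with quantile normalization, Col1a1 0.063, H2-Ab1 0.021 and Igf1r -0.022; and with upper quartile scaling, Col1a2 -0.013. RPKM depth limits genes near 0.5 RPKM most.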

Other observations

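The tumor insulin_13, which was not ranked, had 14.7 RPKM of Mki67, so that 10 of the 49 ranked tumors were below it and it would have been in the Mki67-low group. Its summed level of the 9 division lists was 6334 RPKM, and 3 of the 49 ranked tumors were below that. With this tumor kept in the ranking, 1221 genes were higher and 311 lower.

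Mpdz reached 1970.3 RPKM in glargine_69, and Igf2 reached 3475 RPKM in vehicle_189 with a second Mki67-high tumor at 3228 RPKM, while their group medians were 98.8 and 17.3 RPKM.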
